A study of Planococcus citri with 8 samples.

Results

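The acyltransferase families of the citrus mealybug *Planococcus citri* were taken as the gene models whose InterPro protein domain entry, in the table the authors deposited, was 1 of 4 acyltransferase entries. The members were 10 gene models with the phospholipid/glycerol acyltransferase entry (IPR002123), 14 with the diacylglycerol acyltransferase entry (IPR007130), 5 with the membrane bound O-acyl transferase (MBOAT) entry (IPR004299) and 6 with the acyltransferase 3 entry (IPR002656). Together these were 35 of the 40620 gene models counted, or of the 17669 listed in the annotated table. That table gives at most 1 entry per gene model, so an acyltransferase listed there under another of its domains was not counted. The authors' filter for that table is not stated, and gene models outside it carry no entry here. All 35 members had more than 1 CPM (counts scaled to the size of the library) in at least 3 of the 8 libraries. A domain entry does not give the substrate or the activity of an individual enzyme.

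Acyltransferases move a fatty acid or another acyl group onto an acceptor, in most of these families from acyl-coenzyme A. In the glycerolipid pathway, enzymes with the phospholipid/glycerol domain add acyl chains to glycerol 3-phosphate and lysophosphatidic acid, a phosphatase then removes the phosphate, and diacylglycerol acyltransferases add the last chain to form triacylglycerol, the main energy store of the insect fat body and a large part of the lipid loaded into eggs. MBOAT proteins are membrane enzymes that include sterol and diacylglycerol O-acyltransferases, lysophospholipid acyltransferases and the enzymes that acylate Wnt and Hedgehog proteins, while the acyltransferase 3 family is known from bacterial O-acetylases, *Caenorhabditis elegans* NRF-6 and *Drosophila* drop-dead. Mealybugs also secrete wax, and the *P. citri* sex pheromone, released by virgin females, is an acetate ester.

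Polyadenylated RNA was sequenced from 4 pools of adult virgin females (replicates 2, 3, 5 and 6) and 4 pools of adult mated females (replicates 8, 9, 10 and 11), with approximately 150 whole females, or 100 mg, in each pool. Virgin females were raised on separate infested lemons from which male cocoons were removed, whereas mated females were collected from the main colony once ovisacs were present. The effects of mating, of egg laying and of rearing conditions cannot be told apart in this design. The labels name no genetic change or drug treatment in either group.

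Total counts were between 29667566 and 50301861 per library, so that 1 count was worth between 0.0199 and 0.0337 CPM. Virgin replicate 2 stood apart from the other virgin libraries. It was the virgin library closest to the mated mean in 7431 of the 10109 gene models called between the groups (73.5%), and its log2 CPM lay at a median of 0.545 of the way from the mated mean to the mean of the other virgin libraries. Members whose call changes without this library are given with and without it, whereas the lists for other tissues and neighbouring pathways are given with all libraries only. Among marker lists for other tissues, the summed level of 6 myosin tail gene models (muscle) was between 3462 and 7769 CPM in virgin libraries and between 1258 and 2756 CPM in mated libraries, with virgin replicate 2 the lowest of its group. The other marker lists are given with the neighbouring pathways at the end.

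The comparison was virgin over mated females, so a positive log2 fold change means a higher level in virgin females. In virgin females, 9 of the 35 members were called higher and 2 lower at a Benjamini-Hochberg adjusted p under 0.05 (edgeR quasi-likelihood test), and 24 were not called. The share of members called higher (25.7%) was close to that among all 21179 gene models tested, of which 26.4% were called higher, and to the 28.3% among tested gene models with an InterPro entry. Fewer members were called lower (5.71%) than among all gene models (21.3%) or those with an entry (20.5%), but without virgin replicate 2 the shares of members were 37.1% higher and 31.4% lower, beside 31.4% and 30.6% of all gene models. With upper-quartile in place of TMM scaling factors the split was 8 higher and 5 lower, where 23.9% of all gene models were higher and 25.2% lower, and with DESeq2 it was 13 and 7, where the shares were 29.1% and 25.7%. The median log2 fold change of the members was 0.02, beside 0.03 over all gene models tested. The libraries of the 2 groups did not overlap in 7 members, 6 of them higher and 1 lower in virgin females, whereas 43.2% of all gene models tested had groups that did not overlap. No member was switched on or off between the groups: every member had at least 8 counts in every library, and none was at 1 CPM or more in all libraries of one group and at 0.1 CPM or less in all libraries of the other. The pools were whole insects, and fewer cells of an expressing type cannot be told apart from less RNA per cell.

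**Figure D1:**
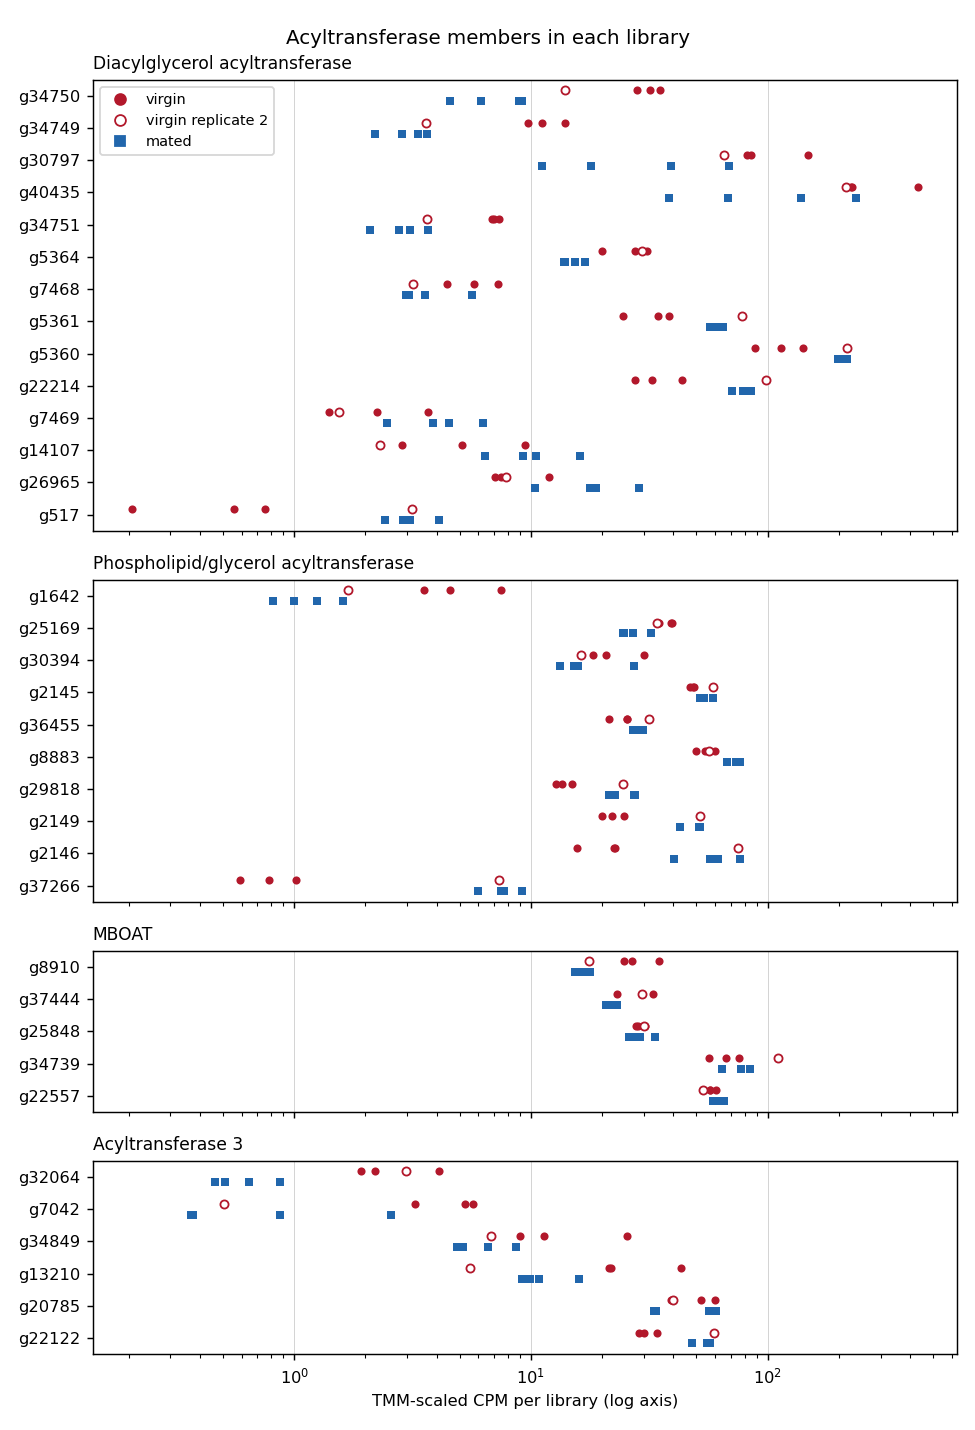
Level of each of the 35 acyltransferase members in each of the 8 libraries, in TMM-scaled CPM on a log axis, grouped by InterPro entry and ordered within an entry by log2 fold change. Red circles are virgin libraries (open for replicate 2) and blue squares are mated libraries. In g34750 every virgin library (13.9 CPM or more) lies above every mated library (9.14 CPM or less), and in g37266 and g517, among others, virgin replicates 3, 5 and 6 lie below every mated library while replicate 2 does not.

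Without virgin replicate 2 the numbers of called members were 13 higher and 11 lower. All 9 higher and both lower members of the full comparison were called in the same direction in this fit. The additional calls were 9 lower and 4 higher members. In each of the 9 newly called lower members, virgin replicates 3, 5 and 6 lay below every mated library, and virgin replicate 2 was at or above the lowest mated library. In each of the 4 newly called higher members, virgin replicate 2 was at or below the highest mated library. These members were picked by the fit without that library, so its position in them was close to fixed in advance. The adjusted p-values of that fit, here and below, do not allow for leaving out the library that stood apart. Unless another setting is named, calls with all libraries, here and below, are those of the edgeR fit with TMM factors. Among the 11 members called with all libraries, virgin replicate 2 was the virgin library closest to the mated mean in 6.

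The phospholipid/glycerol acyltransferase entry covers enzymes of the early, acyl-adding steps of glycerolipid synthesis. Virgin females had 2 of its 10 members higher (20%) and 1 lower (10%), beside 26.4% and 21.3% of all gene models tested. The median log2 fold change was -0.26. The largest called change was in g1642, which was at 1.69, 3.53, 7.48 and 4.56 CPM in virgin replicates 2, 3, 5 and 6, against 1.61, 0.999, 1.25 and 0.811 CPM in mated replicates 8, 9, 10 and 11. Its groups did not overlap, although virgin replicate 2 was only just above mated replicate 8. The mean level of g1642 in virgin females was 3.69-fold that in mated females (log2 fold change 1.88, SE 0.45, edgeR adjusted p = 0.0102). A smaller difference was seen in g25169, at 34.0, 38.9, 39.5 and 34.7 CPM in virgin replicates 2, 3, 5 and 6, against 32.1, 26.9, 24.6 and 24.8 CPM in mated replicates 8, 9, 10 and 11. Here virgin replicate 2 was close to virgin replicate 6, and the fold change was 1.36 (log2 fold change 0.44, SE 0.12, edgeR adjusted p = 0.0167). The call on g25169 was lost when mated replicate 10 or mated replicate 11 was left out, with adjusted p-values of up to 0.0666.

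The lower member with this entry was g8883, at 56.3, 49.7, 60.1 and 54.2 CPM in virgin replicates 2, 3, 5 and 6, against 76.5, 67.5, 75.1 and 73.6 CPM in mated replicates 8, 9, 10 and 11. The virgin and mated libraries of g8883 did not overlap, the spread within each group was small, and mated females had 1.33-fold the level of virgin females (log2 fold change -0.41, SE 0.09, edgeR adjusted p = 0.00784). Of the remaining 7 members, g2146, g2149, g29818 and g37266 were not called with all libraries by edgeR and were called lower without virgin replicate 2. With all libraries, DESeq2, limma voom, voom with sample quality weights and limma on the deposited log2 CPM also called g2149, g29818 and g37266 lower. Upper-quartile factors called g2149 and g29818 lower as well, whereas g2146 was called lower only by voom with sample quality weights. The clearest case was g37266, at 7.30, 1.01, 0.593 and 0.783 CPM in virgin replicates 2, 3, 5 and 6 and 5.97, 7.70, 9.18 and 7.45 CPM in the mated replicates, a member chosen for its values. The level of g37266 in virgin replicate 2 was within the mated range, whereas the other virgin libraries were all under every mated one. The log2 fold change of g37266 was -1.64 with all libraries (SE 0.78, edgeR adjusted p = 0.112) and -3.26 (adjusted p = 8.40e-05) without virgin replicate 2. Virgin replicate 2 was also within the mated range in g29818, at 24.6, 13.5, 14.9 and 12.7 CPM in virgin replicates 2, 3, 5 and 6 and 21.4, 22.8, 27.2 and 27.6 CPM in the mated replicates, where leaving out virgin replicate 2 moved the log2 fold change of -0.59 to -0.86 (adjusted p = 0.000945). The members g2145, g30394 and g36455 were not called in either fit, with log2 fold changes of -0.09, 0.26 and -0.12 with all libraries and -0.18, 0.36 and -0.23 without virgin replicate 2.

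The members g2145, g2146 and g2149 of this entry lay on scaffold PCITRI_00044 of the Pcitri.v1 assembly, g2145 and g2146 as adjacent gene models. The level of g2145 averaged 50.8 ± 5.47 CPM in the virgin group, against 54.2 ± 2.99 CPM in the mated group (SD, n = 4 each), and virgin replicate 2 was its highest library. Its neighbour g2146 was at 74.9, 22.6, 15.6 and 22.5 CPM in virgin replicates 2, 3, 5 and 6, against 40.3, 76.6, 56.8 and 61.4 CPM in mated replicates 8, 9, 10 and 11, and virgin replicate 2 stood with the mated libraries, far above the other 3. A similar order was seen in g2149, at 51.7, 20.03, 24.8 and 22.0 CPM in virgin replicates 2, 3, 5 and 6, against 42.6, 51.8, 51.3 and 51.3 CPM in mated replicates 8, 9, 10 and 11. Without virgin replicate 2, the log2 fold changes were -1.55 (adjusted p = 0.000955) for g2146 and -1.15 (adjusted p = 0.000153) for g2149. The difference between the groups (virgin minus mated) in the log2 ratio of g2145 to g2146 was 0.94, which did not pass an exact permutation test (two-sided p = 0.114, or 0.143 after Benjamini-Hochberg adjustment over the 10 pairs of members that share a scaffold). With 4 libraries in each group this test cannot give a p under 0.0286, and the smallest adjusted value it gave over the 10 pairs was 0.0714.

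**Figure D2:**
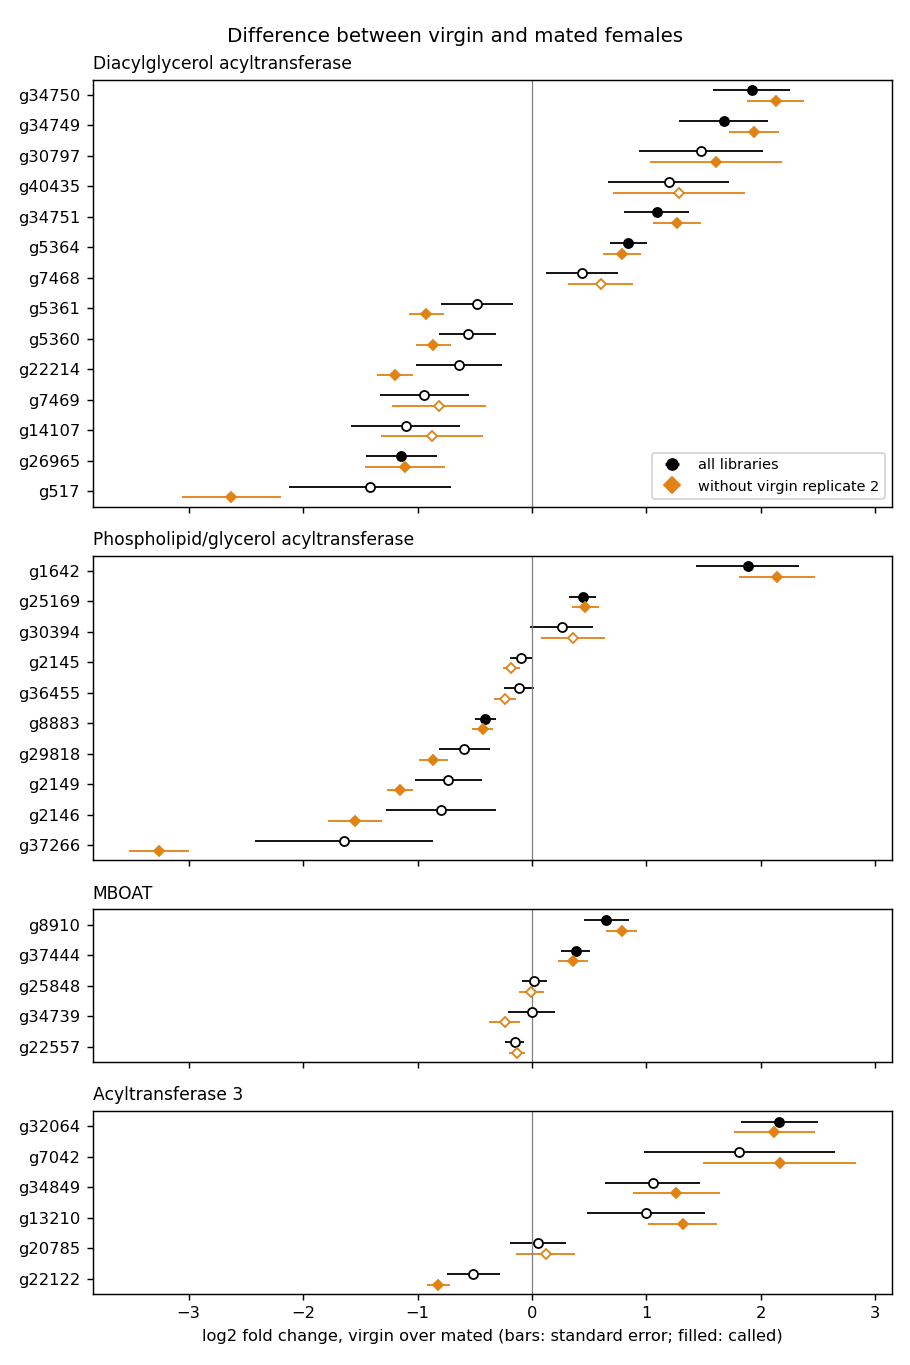
Log2 fold change of virgin over mated females for the 35 members, by InterPro entry, with all 8 libraries and with virgin replicate 2 left out; bars are ± 1 SE and filled symbols are called members. The edgeR call on g37266 changes with that library (log2 fold change -1.64 with it and -3.26 without it), whereas that on g34750 does not (1.92 and 2.13).

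Diacylglycerol acyltransferases catalyse the last step of triacylglycerol synthesis, and in mammals the same protein family also holds monoacylglycerol and wax alcohol acyltransferases. Of the 14 members with this entry, 4 were higher (28.6%), 1 was lower (7.14%) and 9 were not called, with a median log2 fold change of -0.02. Of all gene models tested, 26.4% were higher and 21.3% lower. Of the 4 higher members, 3 were the adjacent gene models g34749, g34750 and g34751 on scaffold PCITRI_00774. The largest change of the trio was in g34750, at 13.9, 28.1, 35.1 and 31.9 CPM in virgin replicates 2, 3, 5 and 6, against 8.95, 9.14, 4.56 and 6.17 CPM in mated replicates 8, 9, 10 and 11. No virgin library of g34750 overlapped a mated one, but virgin replicate 2 lay nearer to the mated libraries than the other virgin libraries did. The mean level of g34750 in virgin females was 3.78-fold that in mated females (log2 fold change 1.92, SE 0.34, edgeR adjusted p = 0.00317).

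The neighbours of g34750 had fewer counts and were higher in virgin females as well. For g34749 the libraries were at 3.60, 9.75, 13.9 and 11.1 CPM in virgin replicates 2, 3, 5 and 6, against 3.34, 3.63, 2.19 and 2.87 CPM in mated replicates 8, 9, 10 and 11. Mated replicate 9 and virgin replicate 2 were almost level, and the fold change was 3.19 (log2 fold change 1.67, SE 0.39, edgeR adjusted p = 0.00932). For g34751 the libraries were at 3.62, 6.84, 7.30 and 6.96 CPM in virgin replicates 2, 3, 5 and 6, against 3.68, 3.09, 2.08 and 2.78 CPM in mated replicates 8, 9, 10 and 11. Here virgin replicate 2 was just below mated replicate 8, the other virgin libraries were within a narrow range well above it, and the fold change was 2.12 (log2 fold change 1.09, SE 0.28, edgeR adjusted p = 0.0138). All 3 calls held when any 1 library was left out and in every other setting that was run. Without virgin replicate 2 the log2 fold changes were 1.94 (adjusted p = 0.000250) for g34749, 2.13 (adjusted p = 0.000294) for g34750 and 1.26 (adjusted p = 0.00141) for g34751. The log2 ratio of g34750 to g34751 was 0.83 higher in virgin than in mated females and reached the smallest p the exact permutation test allows (0.0286), which did not pass after adjustment over the 10 pairs (0.0714).

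A second group of members lay on scaffold PCITRI_01717, where g5360 and g5361 are adjacent gene models and g5364 is separated from g5361 by g5362 and g5363, which are not members. Only g5364 was called with all libraries by edgeR. The libraries of g5364 were at 29.4, 27.6, 19.9 and 30.8 CPM in virgin replicates 2, 3, 5 and 6, against 13.8, 16.99, 15.4 and 13.9 CPM in mated replicates 8, 9, 10 and 11. All virgin libraries of g5364, replicate 2 included, were above every mated library, and the fold change was 1.79 (log2 fold change 0.84, SE 0.16, edgeR adjusted p = 0.00407). By contrast, g5360 was at 216, 141, 88.7 and 114 CPM in virgin replicates 2, 3, 5 and 6 and 198, 199, 217 and 213 CPM in the mated replicates, so that virgin replicate 2 was among the mated libraries and the other virgin libraries were below them all. In g5361, at 77.6, 34.3, 24.6 and 38.2 CPM in virgin replicates 2, 3, 5 and 6 and 64.9, 57.1, 58.8 and 62.5 CPM in the mated replicates, virgin replicate 2 was above the mated libraries and the other virgin libraries were below them. Neither was called with all libraries by edgeR (log2 fold changes -0.56 and -0.48). Without virgin replicate 2 the values were -0.86 (adjusted p = 0.00186) for g5360 and -0.92 (adjusted p = 0.00136) for g5361. With all libraries, voom with sample quality weights called both lower, and limma on the deposited log2 CPM called g5360 lower. In the log2 ratio to g5364, the difference between virgin and mated females was -1.47 for g5360 and -1.44 for g5361. Both reached the smallest exact p (0.0286) and did not pass after adjustment (0.0714). The ratio of g5360 to g5361 differed by only -0.03 (exact p = 0.857). The non-member g5363, a leucine-rich repeat gene model next to g5364, had a log2 fold change of 1.12 (edgeR adjusted p = 0.00894).

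The single member with this entry that was lower in virgin females was g26965, at 7.87, 7.46, 7.07 and 11.9 CPM in virgin replicates 2, 3, 5 and 6, against 10.4, 28.7, 17.8 and 18.8 CPM in mated replicates 8, 9, 10 and 11. The groups overlapped, since virgin replicate 6 was above mated replicate 8, and mated replicate 9 was well above the other mated libraries. Mated females had 2.21-fold the mean level of virgin females (log2 fold change -1.14, SE 0.31, edgeR adjusted p = 0.0179). Virgin replicate 2 was level with replicates 3 and 5 in this gene model, and the call was lost only when virgin replicate 3 was left out (adjusted p = 0.0514).

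The next members with the diacylglycerol acyltransferase entry are grouped by patterns that were noticed in the values. In g517 and g22214 the virgin libraries were split, as in g5360. The libraries of g517 were at 3.15, 0.556, 0.206 and 0.756 CPM in virgin replicates 2, 3, 5 and 6 and 4.08, 2.88, 2.41 and 3.10 CPM in the mated replicates, and those of g22214 at 98.5, 43.4, 27.4 and 32.6 CPM in virgin replicates 2, 3, 5 and 6 and 78.7, 70.8, 79.4 and 84.9 CPM in the mated replicates. Replicates 3, 5 and 6 were below all mated libraries in both. Neither was called with all libraries by edgeR. Both were called lower without virgin replicate 2, with log2 fold changes of -2.63 (adjusted p = 0.00139) for g517 and -1.20 (adjusted p = 0.000535) for g22214. With all libraries, voom with sample quality weights called both lower. Limma voom and limma on the deposited log2 CPM called g517 lower as well.

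In g40435 and g30797 the mated libraries differed among themselves. The member g40435, which reached the highest count of all members (16563), was at 215, 226, 228 and 432 CPM in virgin replicates 2, 3, 5 and 6, against 68.1, 237, 38.4 and 138 CPM in mated replicates 8, 9, 10 and 11. The mated libraries spanned 6.18-fold, and mated replicate 9 was above 3 of the virgin libraries. In g30797, on a separate scaffold, the libraries were at 65.3, 81.8, 85.1 and 148 CPM in virgin replicates 2, 3, 5 and 6, against 18.0, 68.9, 11.2 and 38.9 CPM in mated replicates 8, 9, 10 and 11. The highest and lowest mated libraries of g30797 differed 6.17-fold, again with mated replicate 9 highest and mated replicate 10 lowest. Neither was called with all libraries by edgeR (g40435, log2 fold change 1.19, SE 0.53, edgeR adjusted p = 0.0934, and g30797, log2 fold change 1.47, SE 0.54, edgeR adjusted p = 0.0527). With all libraries, DESeq2, limma voom, voom with sample quality weights and limma on the deposited log2 CPM called both higher. Scaling by library size alone called g30797 higher as well. Without virgin replicate 2, g30797 was called higher at 1.61 (adjusted p = 0.0416) and g40435 was not called, at 1.28 (adjusted p = 0.0857). Without mated replicate 9 both were called higher, g30797 at 2.06 (adjusted p = 0.0141) and g40435 at 1.74 (adjusted p = 0.0231). The ratio of g30797 to g40435 nevertheless stayed between 0.304 and 0.374 in virgin libraries and between 0.264 and 0.291 in mated libraries, so that the groups did not overlap. This 1.42-fold span over all libraries was the narrowest among the 105 pairs of members that each varied at least 4-fold over the libraries. The next narrowest was that of g7469 to g14107, also on separate scaffolds, at 0.391 to 0.671 in virgin and 0.384 to 0.426 in mated libraries. These 8 points share their libraries and depth, the pairs were picked for their steadiness, and gene lengths were not used, so only the spread of a ratio is read and not its size. Whether the ratios of these pairs differ between the groups was not tested.

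**Figure D3:**
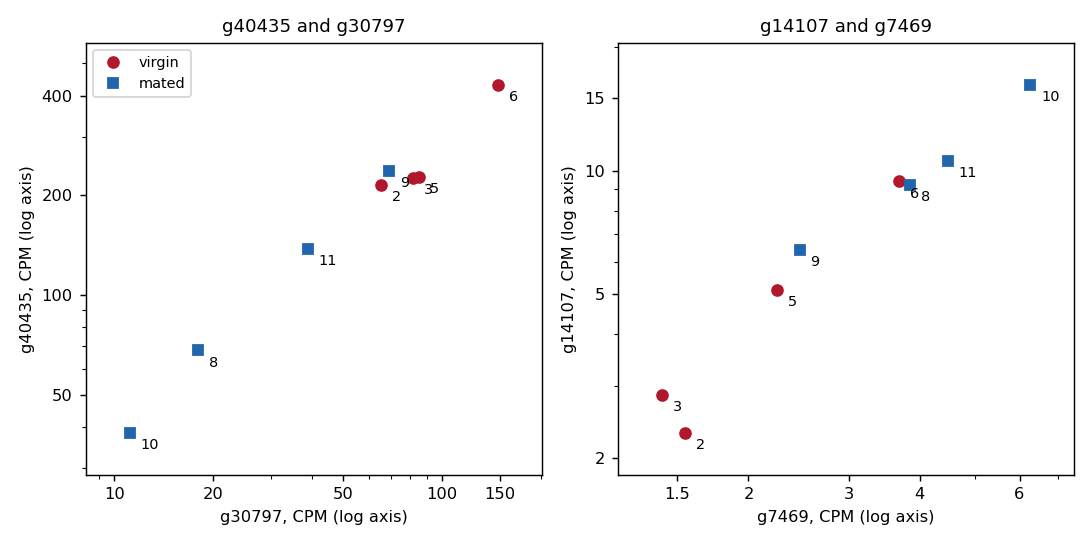
The 2 pairs of members with the steadiest ratio over the 8 libraries, in TMM-scaled CPM on log axes, g40435 against g30797 (left) and g14107 against g7469 (right). Red circles are virgin and blue squares mated libraries, with the replicate number beside each. On the left every virgin ratio (0.304 to 0.374) is above every mated ratio (0.264 to 0.291), and on the right the virgin ratios (0.391 to 0.671) and mated ratios (0.384 to 0.426) overlap.

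The pair g7468 and g7469 were adjacent on scaffold PCITRI_02059 and were not called. Their levels averaged 5.15 ± 1.76 CPM in the virgin group, against 3.81 ± 1.25 CPM in the mated group for g7468, and 2.22 ± 1.04 CPM in the virgin group, against 4.27 ± 1.58 CPM in the mated group for g7469 (SD, n = 4 each). The difference between the groups in their log2 ratio, 1.37, reached the smallest exact p (0.0286, adjusted 0.0714). The level of g14107 averaged 4.93 ± 3.24 CPM in the virgin group, against 10.6 ± 4.11 CPM in the mated group (SD, n = 4 each), with a log2 fold change of -1.10 (edgeR adjusted p = 0.0856). Without virgin replicate 6, g7469 at -1.29 (adjusted p = 0.0298) and g14107 at -1.62 (adjusted p = 0.0207) were called lower, and so was g7469 without mated replicate 9, at -1.14 (adjusted p = 0.0474). With all libraries, DESeq2 called g7469 and g14107 lower, and voom with sample quality weights called g14107 lower and g7468 higher.

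The MBOAT entry covers membrane enzymes with lipid, sterol or protein acceptors. Of 5 members, 2 were higher in virgin females (40%), none was lower at an adjusted p under 0.05, and the median log2 fold change was 0.02. With so few members, 40% is not far from the 26.4% called higher among all gene models tested, of which 21.3% were lower. The libraries of g37444 were at 29.5, 29.4, 32.8 and 23.1 CPM in virgin replicates 2, 3, 5 and 6, against 21.5, 22.6, 23.1 and 20.8 CPM in mated replicates 8, 9, 10 and 11. Virgin replicate 6 was barely above mated replicate 10, so that the groups just failed to overlap, and the fold change was small (1.30; log2 fold change 0.38, SE 0.13, edgeR adjusted p = 0.0348). For g8910, with 17.6, 26.7, 34.7 and 24.6 CPM in virgin replicates 2, 3, 5 and 6 and 15.8, 17.1, 15.4 and 17.8 CPM in the mated replicates, virgin replicate 2 was within the mated range and the other virgin libraries were above it (log2 fold change 0.65, SE 0.20, edgeR adjusted p = 0.0260). Without virgin replicate 2 the log2 fold change of g8910 was 0.78 (adjusted p = 0.00181). These calls were the least stable: each was lost when any one of 6 libraries was left out (virgin replicate 3 or 5, or any mated replicate), with adjusted p-values of up to 0.107 for g37444 and 0.0798 for g8910, and that on g37444 was lost with upper-quartile factors and with no low-count filter as well. The other 3 members were not called, except that g22557 was called lower with upper-quartile factors. Their mean levels were 56.9 ± 3.02 CPM in the virgin group, against 63.3 ± 3.0 CPM in the mated group for g22557, 29.2 ± 1.25 CPM in the virgin group, against 28.8 ± 3.35 CPM in the mated group for g25848, and 77.2 ± 23.4 CPM in the virgin group, against 77.4 ± 9.37 CPM in the mated group for g34739 (SD, n = 4 each). The standard errors of their log2 fold changes were between 0.08 and 0.21, and virgin replicate 2 was the highest library of g34739, at 110.4, 75.4, 56.6 and 66.5 CPM in virgin replicates 2, 3, 5 and 6.

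Acyltransferase 3 proteins are membrane proteins whose substrates in insects are mostly not known, and *Drosophila* drop-dead and *C. elegans* NRF-6 are among them. Of the 6 members, 1 was higher in virgin females (16.7%) and none was lower at an adjusted p under 0.05, beside 26.4% and 21.3% of all gene models tested. Their median log2 fold change of 1.03 was the highest of the 4 entries. The called member was g32064, at 2.98, 4.09, 1.91 and 2.19 CPM in virgin replicates 2, 3, 5 and 6, against 0.510, 0.463, 0.645 and 0.869 CPM in mated replicates 8, 9, 10 and 11. All virgin libraries were above every mated library, replicate 2 included, and the fold change of 4.49 was the largest among called members (log2 fold change 2.16, SE 0.33, edgeR adjusted p = 0.00214). Its mean level in mated females was under 1 CPM.

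Of the other members of the entry, g7042, g13210 and g34849 had positive log2 fold changes, of up to 1.81, that did not pass the edgeR test. With all libraries, voom with sample quality weights called all 3 higher, and DESeq2 called g7042 and g34849 higher. The libraries of g7042 were at 0.506, 3.24, 5.68 and 5.24 CPM in virgin replicates 2, 3, 5 and 6 and 0.368, 2.56, 0.375 and 0.869 CPM in the mated replicates, so that virgin replicate 2 and mated replicate 9 each stood with the other group. Without mated replicate 9 the log2 fold change of g7042 was 2.76 and it was called higher (adjusted p = 0.0312). In g13210, at 5.51, 21.3, 21.7 and 43.2 CPM in virgin replicates 2, 3, 5 and 6 and 15.9, 9.87, 10.9 and 9.18 CPM in the mated replicates, virgin replicate 2 was below every mated library and the other virgin libraries were above them all. Without virgin replicate 2 the log2 fold changes were 2.16 (adjusted p = 0.0232) for g7042, 1.31 (adjusted p = 0.00661) for g13210 and 1.26 (adjusted p = 0.0205) for g34849, and all 3 were called higher. Without virgin replicate 6, the highest library of g13210 and g34849, none of the 3 was called. The values were then 1.60 (adjusted p = 0.202) for g7042, 0.50 (adjusted p = 0.409) for g13210 and 0.52 (adjusted p = 0.167) for g34849. The remaining members went other ways. The level of g20785 averaged 47.7 ± 10.1 CPM in the virgin group, against 46.1 ± 14.6 CPM in the mated group, and that of g22122 averaged 37.9 ± 14.3 CPM in the virgin group, against 54.1 ± 4.07 CPM in the mated group (SD, n = 4 each). In g22122, virgin replicate 2 was above every mated library and replicates 3, 5 and 6 were below them all. The values were 59.1, 30.05, 28.5 and 34.1 CPM in virgin replicates 2, 3, 5 and 6. Without virgin replicate 2, g22122 was called lower, at -0.82 (adjusted p = 0.000374). With all libraries it was called lower by voom with sample quality weights and by limma on the deposited log2 CPM.

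**Figure D4:**
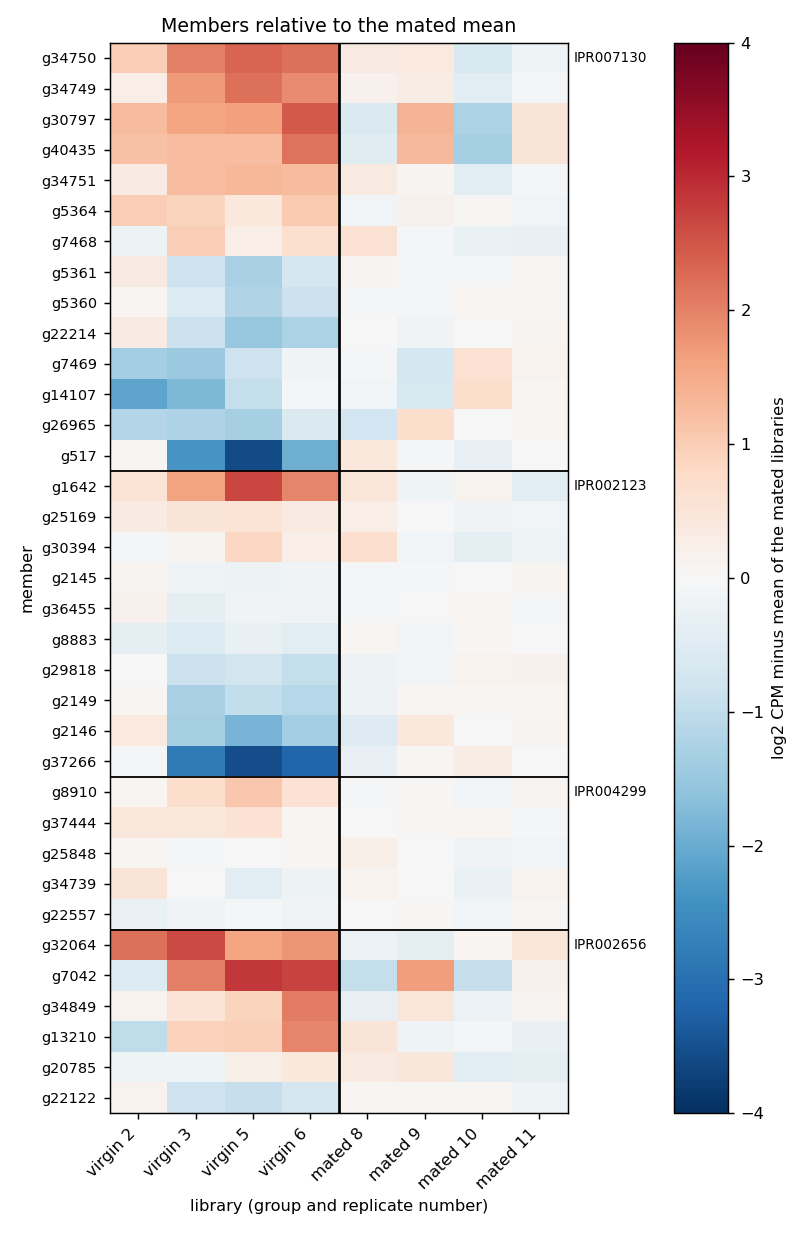
Log2 CPM of each of the 35 members in each library minus the mean log2 CPM of the 4 mated libraries of that member, with virgin libraries on the left and mated libraries on the right. Red is above and blue below the mated mean; g37266 and g517 are blue in virgin replicates 3, 5 and 6 and near the mated mean in replicate 2, while g34749, g34750 and g34751 are red in replicates 3, 5 and 6 and less so in replicate 2.

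The members lay on 28 scaffolds, and 11 of them shared a scaffold with another member. Of the 4 scaffolds that hold neighbours, only PCITRI_00774 had all of its members called, and all 3 were higher in virgin females. Sequences of the gene models were not analysed here, so how alike neighbouring copies are is not known, and read pairs that map to more than one place were not counted for any of them.

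Other enzymes that hand over or supply acyl groups were counted by their InterPro entries. The counts in this and the following lists stand beside 26.4% of all gene models tested called higher and 21.3% called lower. Among 38 gene models of other acyl-transferring enzymes, 13 were higher and 3 lower in virgin females (34.2% and 7.89%), with a median log2 fold change of 0.09. The palmitoyltransferase g26058, of a family that attaches palmitate to proteins, averaged 57.2 ± 16.6 CPM in the virgin group, against 12.5 ± 4.30 CPM in the mated group (log2 fold change 2.19, SE 0.31, edgeR adjusted p = 0.00167), while another of this family, g23999, averaged 20.9 ± 2.47 CPM in the virgin group, against 39.7 ± 3.78 CPM in the mated group (log2 fold change -0.93, SE 0.12, edgeR adjusted p = 0.00153). The acetyltransferase (GNAT) domain gene model g25749 was called higher, with a fold change of 1.83 (log2 fold change 0.87, SE 0.09, edgeR adjusted p = 0.00105). The member of a wax ester synthase family g30934 averaged 54.4 ± 21.5 CPM in the virgin group, against 159 ± 24.2 CPM in the mated group (log2 fold change -1.55, SE 0.27, edgeR adjusted p = 0.00313), and the other gene model with that entry was called higher in virgin females.

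Fatty acid synthase, elongases, desaturases and the ligases that make acyl-coenzyme A supply acyl chains, acyl-coenzyme A binding proteins carry them, and fatty acyl-coenzyme A reductases turn them into alcohols. Of 120 gene models with entries for any of these, 37 were higher and 29 lower in virgin females (30.8% and 24.2%), with a median log2 fold change of 0.07, and the entries within this list differed in direction. AMP-dependent synthetases and ligases, among which acyl-coenzyme A synthetases are found, had 18 of 35 gene models higher and 6 lower, with g2546 at 214 ± 33.8 CPM in the virgin group, against 52.5 ± 20.6 CPM in the mated group and g12083 at 55.3 ± 6.36 CPM in the virgin group, against 26.0 ± 3.09 CPM in the mated group (log2 fold changes 2.03 and 1.09, edgeR adjusted p = 0.00142 and 0.00114). The acyl transferase domain entry was listed for fatty acid synthase, but does not show that a gene model is one. It had none of 7 gene models higher at that threshold and 3 lower. One of these, g28294, averaged 474 ± 98.0 CPM in the virgin group, against 1236 ± 19.5 CPM in the mated group (log2 fold change -1.38, SE 0.17, edgeR adjusted p = 0.00119), and another, g17114, averaged 1.79 ± 0.797 CPM in the virgin group, against 15.2 ± 3.06 CPM in the mated group (log2 fold change -3.09, SE 0.39, edgeR adjusted p = 0.00133). Fatty acid elongases had 5 higher and 7 lower of 20. The reductases carried either of 2 entries, one with 5 higher and 10 lower of 26 gene models (IPR013120) and the other with 5 higher and 2 lower of 19 (IPR033640).

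Between the early and the last acyl-adding steps, phosphatases release diacylglycerol, kinases turn it back into phosphatidic acid, and CDP-alcohol phosphatidyltransferases make phospholipids. Of 19 gene models for these steps, 4 of them CDP-alcohol phosphatidyltransferases, 8 were higher and 3 lower in virgin females (42.1% and 15.8%), with a median log2 fold change of 0.32. The type 2 phosphatidic acid phosphatase domain was found in g26428, at 44.2 ± 6.76 CPM in the virgin group, against 15.3 ± 2.05 CPM in the mated group, and in g23847, at 35.3 ± 7.05 CPM in the virgin group, against 11.4 ± 1.10 CPM in the mated group, with log2 fold changes of 1.53 and 1.63 (edgeR adjusted p = 0.000909 for each). With the same entry, g22048 was lower in virgin females (log2 fold change -0.97, SE 0.27, edgeR adjusted p = 0.0182), as was the diacylglycerol kinase g39408 (log2 fold change -0.44, SE 0.13, edgeR adjusted p = 0.0265). The 1 gene model of this list with the lipin entry was not called (log2 fold change -0.27). The type 2 entry, whose label also names haloperoxidase, does not show which of its gene models release diacylglycerol in this pathway.

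Lipases break triacylglycerol down, and perilipin coats the lipid droplets that hold it. Of 48 gene models for lipid storage and lipases, 15 were higher and 7 lower in virgin females (31.2% and 14.6%), with a median log2 fold change of 0.30. The summed level of this list ran against its median, at 3254 to 25555 CPM in virgin and 64848 to 137013 CPM in mated libraries, with virgin replicate 2 the highest of its group. A smaller part of that sum in mated libraries was a gene model with the lipase/vitellogenin entry, g37912, which averaged 1061 ± 921 CPM in the virgin group, against 14559.5 ± 3692 CPM in the mated group (log2 fold change -3.78, SE 0.61, edgeR adjusted p = 0.00246). Most of it came from other gene models of the list. The lipase/vitellogenin entry, held by 38 of the 48, does not tell lipases from vitellogenins, so the sum is not a level of lipases alone. Another with the same entry, g1027, averaged 25.1 ± 9.40 CPM in the virgin group, against 3.44 ± 0.669 CPM in the mated group (log2 fold change 2.87, SE 0.31, edgeR adjusted p = 0.00105). The perilipin gene model was not called.

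The marker lists moved as follows, and their part in the results on the acyltransferases was not tested. Of the 6 myosin tail gene models, 5 were higher in virgin females and none was lower at that threshold, g4187 with a log2 fold change of 2.11 and g12221 with 1.89. Of 5 MCM gene models, which mark DNA replication, 4 were lower and none was higher in virgin females (median log2 fold change -0.96), with summed levels of 265 to 430 CPM in virgin and 586 to 772 CPM in mated libraries. Virgin replicate 2 was the highest virgin library in that sum. Gene models with the N-terminal lipid transport domain of yolk proteins and lipoproteins summed to between 215 and 273 CPM in virgin and between 388 and 436 CPM in mated libraries, with 1 of 4 lower and none higher at that threshold. That sum leaves out gene models with the lipase/vitellogenin entry. Of 11 gene models with Piwi or PAZ domains (listed for the germline small RNA pathway), 1 was called higher and 2 lower, and they summed to between 4192 and 5232 CPM in virgin and between 3576 and 4167 CPM in mated libraries. These domain entries do not show that a gene model acts in the germline. No gene model of these 4 lists had a count of 0 in any library, and the list for the axoneme, a sperm and cilium structure, matched 0 gene models.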

How the data were processed

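RNA from 8 pools of whole females was sequenced, and the authors trimmed reads, mapped them to the Pcitri.v1 genome and counted uniquely mapped read pairs per gene model in CLC Genomics Workbench. The deposited counts are whole numbers, not normalized. Whether counting used strand is not given, so overlapping and antisense gene models cannot be told apart. Deposited log2 CPM values, made by the authors for each library, entered an alternative only. The authors deposited as well a table of their log2 fold changes and adjusted p-values, of which only the InterPro columns were read. Tools in the submitters' processing notes are edgeR 3.20.9, limma 3.34.9, FastQC and R 3.4.2. No column was left unassigned.

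The counts were tested with edgeR 4.0.16 in R 4.3.3. Gene models were kept by filterByExpr, scaled by TMM and tested on the condition alone with glmQLFit and glmQLFTest (two-sided), with Benjamini-Hochberg adjustment over all 21179 tested and calls at an adjusted p under 0.05. All 35 members passed the filter. Levels are mean ± SD of TMM-scaled CPM, and standard errors (SE) were derived from the fold change and the F statistic. Counts between 8 and 16563 stood behind the values of the members. A count of 3, taken as the floor, was 0.0596 to 0.101 CPM. The authors call the pools biological replicates. The p-values set the difference between the groups against the spread between pools, and do not separate mating from the different rearing of the groups. On simulated counts for virgin over mated females (21179 gene models) true changes of 1 log2 unit were found in 20.9% of 67 genes, those of 2 units in 71.6% of 67 and those of 3 units in 89.4% of 66, with 9 false calls. The simulation changed far fewer gene models than the 10109 called here, and the adjusted p depends on how many change. These shares therefore do not give the power of this comparison.

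The members and lists were chosen with earlier results of these data known. Every member could be named. Values in every library were due for g34750, g26965 and, within each entry, up to 4 called members whose groups did not overlap, those with the largest change and a mean log2 CPM not below 0, and up to 2 called gene models each way, with the smallest p, from each further list. Per-library values of other members were chosen after their values were seen. Alternatives were DESeq2 1.42.0, upper-quartile factors, library size alone, no low-count filter, a filter of more than 1 CPM in at least 3 libraries, limma 3.58.1 voom with and without sample quality weights, each library left out in turn, and limma on the deposited log2 CPM, which was chosen after seeing the data.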

Additional observations from a re-analysis of the deposited data

Results flagged for a closer look

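In 8 of 70 groups of 4 libraries (each member in each group), the highest or lowest library lay farther from the others than Dixon's 95% limit for 4 samples, which chance alone passes in about 1 in 20 groups. Most of these concerned virgin replicate 2. It was the highest virgin library for the 3 phospholipid/glycerol acyltransferase members on scaffold PCITRI_00044, at 58.9 CPM for g2145 (others 47.0 to 48.7), 74.9 CPM for g2146 (others 15.6 to 22.6) and 51.7 CPM for g2149 (others 20.03 to 24.8). It was also the highest for g37266, at 7.30 CPM (others 0.593 to 1.01), and the lowest for g34751, at 3.62 CPM (others 6.84 to 7.30). Virgin replicate 6 was highest for g26965, at 11.9 CPM (others 7.07 to 7.87), and for g40435, at 432 CPM (others 215 to 228). In mated females, replicate 8 was lowest for g2149, at 42.6 CPM (others 51.3 to 51.8).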

How the results depend on the processing

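Of 11 called members, 7 were called in each of the 16 alternatives (g32064, g1642, g8883, g5364, g34749, g34750 and g34751), and g8910, g37444, g25169 and g26965 lost their call in at least 1. Over all members and alternatives, 465 fold changes kept their direction and side of the threshold, 62 gained a call, 17 lost one and 16, none of them called, changed sign. The number of higher members, 9 (26.4% of all gene models were called higher), was 15 with limma voom and sample quality weights (34.0%), and between 6 and 13 with 1 library left out (19.5% to 31.4%). The number of lower members, 2 (21.3% of all gene models were called lower), was 7 with DESeq2 (25.7%), 5 with upper-quartile factors (25.2%, with 8 higher), 6 with limma voom (23.5%), 12 with voom and sample quality weights (32.5%), 8 with limma on the deposited log2 CPM (26.4%), and between 1 without virgin replicate 3 (16.2%) and 11 without virgin replicate 2 (30.6%) with 1 library left out. The log2 fold changes that changed sign were near 0: g20785 was at -0.0283 with upper-quartile factors and between -0.10 and 0.20 with 1 library left out, g25848 at -0.0599 with upper-quartile factors, -0.007 with no low-count filter and between -0.049 and 0.09 with 1 library left out, and g34739 at 0.0254 with library size alone and between -0.24 and 0.10 with 1 library left out. The cause of these changes was not tested. No paired analysis was possible because no replicate number is shared between virgin and mated samples. Among the weakest members were g517 and g7042, whose lowest libraries had 8 and 13 counts. Their virgin libraries also spanned 15.2-fold and 11.2-fold. How far depth limited the calls on these members was not tested.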
